A study of Mus musculus with 6 samples.

Results

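The genes described here encode the contractile apparatus of skeletal muscle and the proteins that release, bind and take back its calcium. They are 32 genes, chosen by name from muscle biology, and the array carries 46 probes for them among 55681 probes that are not controls. RNA came from back skin of male C57BL/6 mice aged 6 to 8 weeks, 3 mice per group, with 1 array for each mouse. All backs were shaved. UVB mice were then anesthetized and given UVB at 180 mJ/cm2 to the back, starting 2 days after shaving, 3 times a week for 2 weeks, while control mice were kept dark and received no UVB. Whole skin was measured, so a lower value can stand for fewer muscle cells in the sample or for less RNA per cell, and these cannot be told apart.

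In a sarcomere, myosin heads on the thick filament pull on actin in the thin filament, and the Z-disc anchors neighbouring thin filaments. Troponin and tropomyosin cover the myosin sites on actin until calcium, released through the ryanodine receptor after the dihydropyridine receptor senses the membrane voltage, binds troponin C. A calcium pump then returns the ion to the sarcoplasmic reticulum. Fast and slow fibres use different genes for many of these parts. Mouse back skin carries a thin sheet of striated muscle, the panniculus carnosus, beneath the dermis and fat, and a skin sample can hold more or less of it.

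Of the 32 genes, 23 could be tested, through 27 probes that stood well above background in 3 or more mice. The other 9 are Ckm, Mylpf, Tnnc1, Actn2, Actn3, Ttn, Mybpc2, Casq1 and Myot. One gene passed the test, and it was higher after UVB: Tnni1, at 3.62-fold the control level. None of the 23 passed limma as lower (2 were at an unadjusted p under 0.05). Of the 23, 1 (Myh4) was lower in every UVB mouse than in every control mouse, as were 22.6% of all targets. Over all 24333 genes and other targets tested, 5.54% were called higher and 7.02% lower at an adjusted p under 0.05. The median difference of the 23 genes was -0.41 on the log2 scale, against -0.04 for all targets. Taken per array, the median over the 23 genes had a within-group SD of 0.405, about as large as that difference. The median was -0.0090 with normexp background correction, where 12 of the 23 were negative. It was -0.15 with the slide row as a covariate, a fit that sets UVB mouse 1 alone against the controls. Of the 23 differences 16 were negative and 7 positive, where 53.3% of all targets were negative. Mice of the same group differed more in these genes than in most targets, and control mouse 3 was the lowest control in 18 of the 23.

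Values are log2 signals minus the array's 75th percentile. They can be compared between arrays for 1 probe, not between probes. Differences are UVB minus control, with the limma standard error and 3 mice per group.

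Tnni1 encodes the inhibitory troponin subunit of slow fibres. Its probe is shown because it carries the only call. It lies on chr1:137705328-137706203 of mm9, plus strand, and its 60 bases span 876 bases of genome.

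Tnni1 probe: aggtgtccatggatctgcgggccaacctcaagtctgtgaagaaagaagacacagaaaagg

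The Acta1 and Myh8 probes stand for the genes that varied together between mice. Acta1, the skeletal alpha-actin of the thin filament, is read at chr8:126416197-126416256 on the minus strand of mm9. Myh8, the perinatal myosin heavy chain, is read at chr11:67121925-67121984 on the plus strand.

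Acta1 probe: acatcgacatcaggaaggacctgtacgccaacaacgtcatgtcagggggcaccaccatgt
Myh8 probe: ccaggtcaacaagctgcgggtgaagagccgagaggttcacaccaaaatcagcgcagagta

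Tnnt3, the fast troponin T, has 2 tested probes that overlap. They lie on the plus strand of chr7 in mm9, at chr7:149698467-149698526 and chr7:149698500-149700262. Capitals mark the 27 bases that they share, so that they are not independent measurements.

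Tnnt3 brighter probe: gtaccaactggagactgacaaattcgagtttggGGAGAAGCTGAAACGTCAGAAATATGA
Tnnt3 dimmer probe: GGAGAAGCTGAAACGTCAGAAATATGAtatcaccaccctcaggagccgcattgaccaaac

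Myosin heavy chains are the motors of the thick filament. All 5 genes of this role were tested, none was called by limma (2 at an unadjusted p under 0.05, both lower), and their median difference was -1.15. Myh4, the motor of the fastest fibres, read -2.12, -1.64 and -3.75 in controls 1 to 3 and -4.38, -4.56 and -6.20 in UVB mice 1 to 3. The highest UVB mouse lay below the lowest control, as was so for 22.6% of all targets. The difference was -2.54 ± 0.69 on the log2 scale, with an adjusted p of 0.0615 that misses the threshold. The Myh4 probe was well above background in all 3 controls and in UVB mouse 1 alone, so the UVB level is near the limit of the array. Myh4 passed as lower in 4 of the alternative settings: with control mouse 3 left out, at -3.16 with adjusted p = 0.0411, with the array median as the scale (0.0429), with trend and robust moderation (0.0381) and with the replicate number as a block (0.0286). With normexp background correction its difference was -0.64 and the adjusted p 0.106.

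Myh2 and Myh1, the motors of the other fast fibre types, had the same sign. Myh2 read -3.82, -2.90 and -4.32 in controls and -5.16, -5.10 and -4.24 after UVB, a difference of -1.15 ± 0.42 with adjusted p = 0.120. UVB mice 1 and 2 lay below all controls and UVB mouse 3 above control 3. Myh1 read -4.07, -2.92 and -4.69 in controls and -4.90, -3.80 and -6.20 after UVB, a difference of -1.08 ± 0.70 with adjusted p = 0.339. The groups of Myh1 overlapped, and its sign turned, to 0.045, with normexp. Each of these 2 probes was well above background in 3 controls and in 1 UVB mouse.

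The brighter Myh8 probe read -0.91, -0.37 and -2.59 in controls and -2.29, -1.99 and -3.53 after UVB. Control 3 lay below UVB mice 1 and 2. The difference was -1.31 ± 0.66 with adjusted p = 0.228. A second Myh8 probe, nearer the start of the transcript, was well above background on 0 of 6 arrays. Whether the brighter probe also binds transcripts of the neighbouring myosin genes was not tested. Myh7, the slow and cardiac motor, read -2.70, -3.84 and -2.81 in controls and -2.93, -2.67 and -3.52 after UVB. Its groups overlapped fully, and its difference of 0.08 ± 0.37 had an adjusted p of 0.909.

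**Figure D1:**
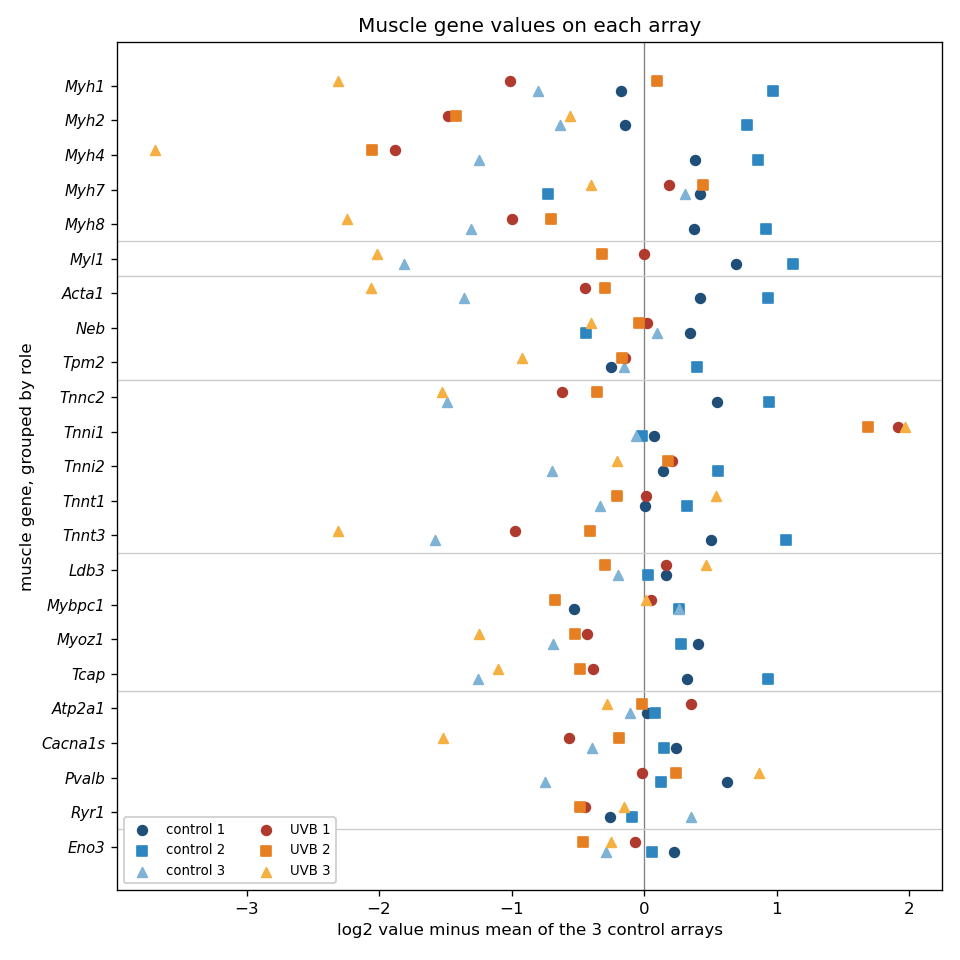
Each point is 1 array (1 mouse). The horizontal axis gives the log2 value minus the mean of the 3 control arrays, the vertical axis the 23 tested genes grouped by role, blue shades the controls and red to yellow the UVB mice. Tnni1 has its 3 UVB points near 2 and its controls near 0, while in Myl1, Acta1, Tnnc2, Tnnt3 and Tcap control 3 lies below UVB mice 1 and 2.

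Myl1, the essential myosin light chain of fast fibres, read -0.34, 0.09 and -2.85 in controls and -1.03, -1.35 and -3.05 after UVB. Control 3 was close to the lowest UVB mouse, and the standard error of 0.89 exceeded the difference of -0.78. Mylpf, the fast regulatory light chain, was well above background on none of the arrays.

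In the thin filament, Acta1 read -0.78, -0.27 and -2.56 in controls and -1.64, -1.49 and -3.26 after UVB. Each group thus held 1 mouse far below its other mice, and the difference of -0.93 ± 0.72 had an adjusted p of 0.421. Tpm2, beta-tropomyosin, which is also made by cells other than skeletal muscle, read 3.68, 4.32 and 3.78 in controls and 3.78, 3.76 and 3.01 after UVB. It varied less than Acta1, with a difference of -0.41 ± 0.28 and an adjusted p of 0.358. Its other tested probe gave -0.48 ± 0.24. For Neb, the nebulin that runs along the thin filament, the tested probe lies on the plus strand of mm9 chromosome 2, and the 2 other Neb probes lie on the minus strand and were not tested. Those 2 probes start at bases 10763 and 21759 of the transcript, and their chromosome positions fall in that order, as for a minus-strand gene. The tested probe is thus on the other strand, though this was not checked against a genome. Its value of -0.14 ± 0.24 is not taken as a level of nebulin, although it counts among the 23 genes and their negative differences.

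Of the 6 troponin genes 5 were tested, and 1 of them was called. Tnni1 read -4.30, -4.40 and -4.44 in controls and -2.46, -2.69 and -2.41 after UVB. The 3 mice of each group lay close together and the groups were far apart. The difference was 1.86 ± 0.13, higher in 3 of 3 UVB mice, with a 95% confidence interval of 1.55 to 2.16 and an adjusted p of 0.00233. The UVB mice lay wholly above the controls, as was so for 15.9% of all targets. Tnni1 was well above background on all 6 arrays and was called under all 18 alternative settings. In 1 of these, the slide row as a covariate, UVB mouse 1 alone stands against the controls. The Tnni1 difference ranged from 0.90 with normexp to 1.94 without UVB mouse 2. Array-wide signal was lower after UVB, with a 75th percentile of 302 to 352 against 363 to 519 in controls, so that probes at background stand higher on UVB arrays on this scale. The 3 Ttn probes that were above background on none of the arrays read -7.46 to -6.79 in controls and -6.85 to -6.25 after UVB. Tnni1 has 1 probe on the array, so no other probe bears on its value.

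The fast counterpart of Tnni1 showed no such separation of the groups. Tnni2, fast troponin I, read 1.45, 1.86 and 0.61 in controls and 1.51, 1.49 and 1.1 after UVB. The UVB mice lay within the range of the controls, and the difference was 0.06 ± 0.33 with a 95% confidence interval of -0.73 to 0.85. The interval lies below that of Tnni1, but the difference between the 2 genes was not itself tested. Tnnt1, slow troponin T, read -3.26, -2.94 and -3.60 in controls and -3.25, -3.47 and -2.73 after UVB, a difference of 0.12 ± 0.25. Tnnc1, troponin C of slow fibres and heart, was above background on none of the arrays.

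Tnnt3 read -1.45, -0.89 and -3.54 in controls and -2.93, -2.37 and -4.27 after UVB through the brighter of its overlapping probes. Control 3 lay below UVB mice 1 and 2. The difference was -1.23 ± 0.79 there and -1.09 ± 0.63 through the dimmer probe. Tnnc2, fast troponin C, read 1.08, 1.47 and -0.96 in controls and -0.09, 0.18 and -0.99 after UVB. Control 3 was nearly as low as the lowest UVB mouse, and the difference of -0.83 ± 0.67 had an adjusted p of 0.441.

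Of the 9 genes for titin, myosin-binding and Z-disc proteins, 4 were tested and none was called by limma, with 0 at an unadjusted p under 0.05. Tcap, the telethonin that caps titin, read -1.13, -0.52 and -2.71 in controls and -1.83, -1.93 and -2.55 after UVB. Here control 3 was the lowest of all 6 mice. Myoz1, a calsarcin of fast fibres, read -3.16, -3.29 and -4.25 in controls and -4.00, -4.09 and -4.81 after UVB. Its difference of -0.73 ± 0.36 had an adjusted p of 0.215, and turned to 0.064 with normexp. Mybpc1, slow myosin-binding protein C, read -2.74, -1.95 and -1.95 in controls and -2.16, -2.88 and -2.20 after UVB, with no separation of the groups and a difference of -0.20 ± 0.30.

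Ldb3, a Z-disc protein also called Cypher or ZASP, was read by 2 probes that differed. The brighter gave 0.17, 0.03 and -0.20 in controls and 0.16, -0.29 and 0.47 after UVB, a difference of 0.11 ± 0.22. The dimmer gave -3.28, -3.40 and -3.64 in controls and -4.04, -4.35 and -3.80 after UVB, so that all UVB mice lay below all controls. Its difference was -0.63 ± 0.18 with a p of 0.0782 adjusted over all 33724 probes tested, of which 6.11% were called lower and 5.08% higher. Neither Ldb3 probe passed.

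Of the 5 calcium handling genes 4 were tested, and none was called by limma, with 0 at an unadjusted p under 0.05. Atp2a1, the calcium pump of fast fibres, read -3.24, -3.18 and -3.37 in controls and -2.91, -3.28 and -3.54 after UVB. The difference of 0.02 ± 0.18 had a 95% confidence interval of -0.42 to 0.46. It turned to -0.083 with quantile normalization and to -0.081 with the array median as the scale. Ryr1, the release channel, read -3.93, -3.76 and -3.32 in controls and -4.11, -4.15 and -3.82 after UVB. UVB mouse 3 fell among the controls, and the difference was -0.36 ± 0.20 with adjusted p = 0.261. With normexp it was 0.16.

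Pvalb, the parvalbumin that buffers calcium in fast fibres, read 0.0025, -0.49 and -1.37 in controls and -0.64, -0.38 and 0.25 after UVB through its tested probe. The difference was 0.36 ± 0.40. The other Pvalb probe was above background in controls 1 and 2 and in no other mouse. It read -3.57, -3.46 and -5.52 in controls and -4.61, -5.17 and -6.49 after UVB. UVB mouse 3 was the lowest on this probe and the highest on the tested one, so the sign for Pvalb rests on the tested probe alone. Casq1, the calcium store protein calsequestrin, was above background on none of the arrays.

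Cacna1s, the voltage sensor, had 2 tested probes of opposite sign. The brighter read -2.88, -2.97 and -3.52 in controls and -3.69, -3.31 and -4.64 after UVB, a difference of -0.76 ± 0.37. The dimmer read -4.40, -5.42 and -5.37 in controls and -4.20, -3.66 and -2.76 after UVB, a difference of 1.52 ± 0.44 with a p of 0.0732 adjusted over all probes. It was above background in control 1 and in all 3 UVB mice. UVB mouse 3 was the lowest of the 6 on the brighter probe and the highest on the dimmer one. Their mean gave 0.38, so no direction can be given for Cacna1s.

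**Figure D2:**
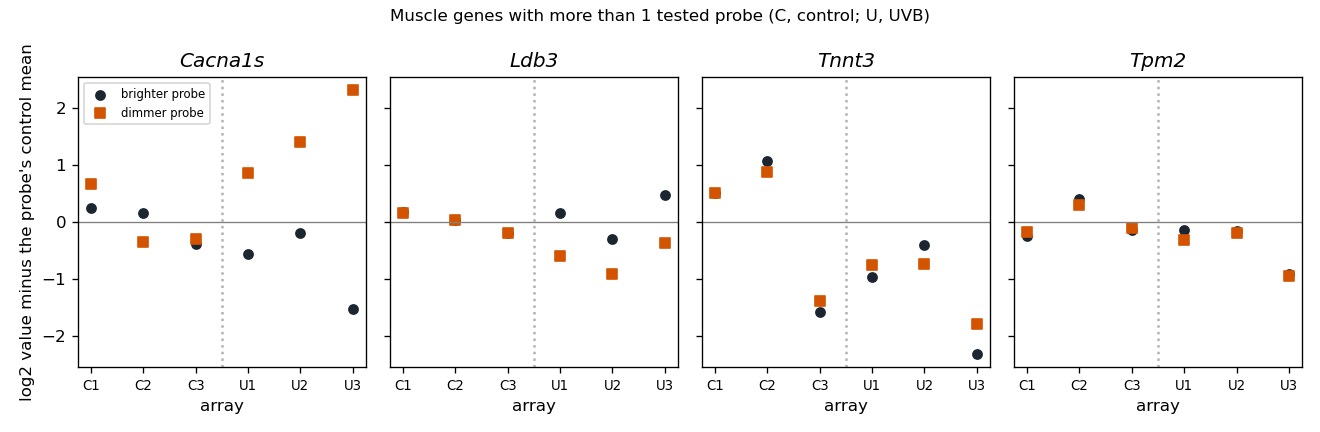
The 4 genes with more than 1 tested probe, 1 panel each. The horizontal axis gives the array (C, control; U, UVB), the vertical axis the log2 value minus that probe's control mean, and the 2 symbols the brighter and dimmer probe. The probes of Tnnt3 and Tpm2 run together across the 6 arrays, while those of Cacna1s part after UVB and those of Ldb3 part by less.

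For energy supply, Eno3, the muscle enolase, read 0.88, 0.71 and 0.37 in controls and 0.58, 0.19 and 0.41 after UVB. The groups overlapped and the difference was -0.26 ± 0.18. Ckm, the muscle creatine kinase, was above background in controls 1 and 2 and in no other mouse.

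**Figure D3:**
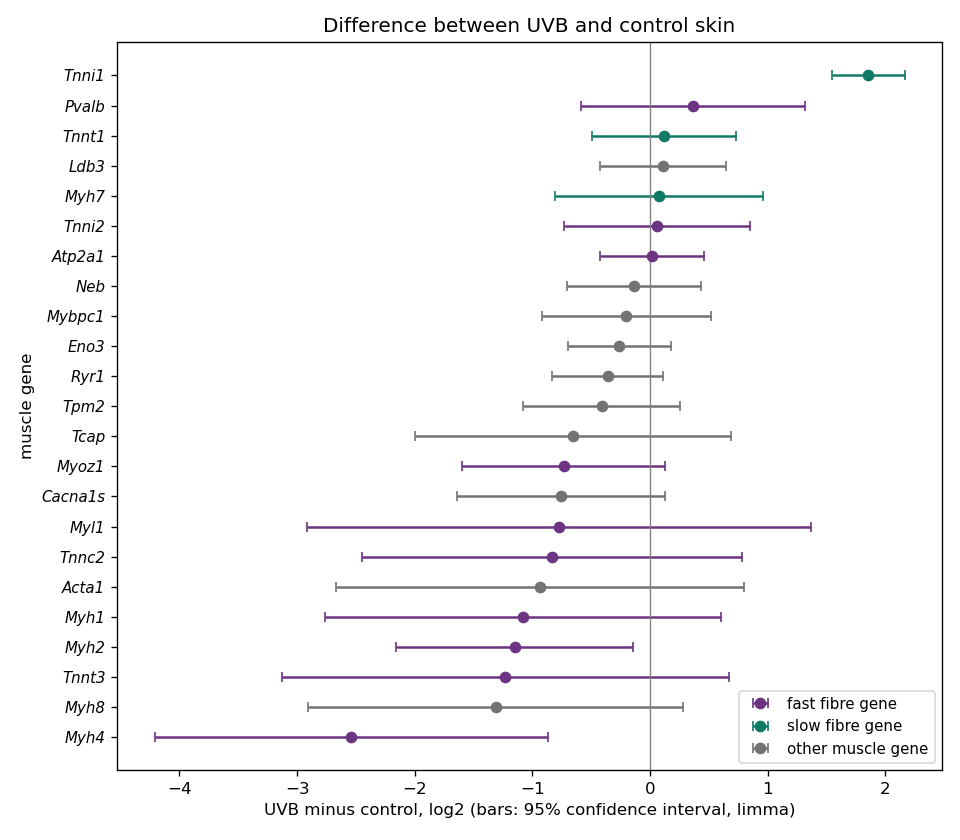
UVB minus control on the log2 scale (horizontal axis) for the 23 tested genes, ordered by difference on the vertical axis. Points are limma estimates from 3 mice per group and bars 95% confidence intervals. The interval of Tnni1 lies wholly above 0 and those of Myh4 and Myh2 wholly below it, and the bars of Myl1 and Tnnt3 are among the longest.

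At an unadjusted p under 0.05, 2 of the 23 genes were lower, Myh4 and Myh2, and 1 was higher, Tnni1. Over all targets, 18% were lower and 13.5% higher by that rule. Among the 10 tested genes of fast fibres the median difference was -0.80, with 7 negative and none called by limma. Among the 3 tested genes of slow fibres, Myh7, Tnnt1 and Tnni1, it was 0.12, with none negative and 1 called. Mybpc1, named for slow fibres but also found in fast ones, was counted in neither set, at -0.20. The fast values depended on background handling, and the Myh1, Myh2 and Myh4 probes were above background in 1 UVB mouse each. With normexp, Pvalb, Atp2a1, Myoz1 and Myh1 were at 0.30, 0.25, 0.064 and 0.045, and Tnni2 and Myh2 at -0.0090 and -0.044. Myl1, Tnnt3, Myh4 and Tnnc2 were then at -0.50, -0.53, -0.64 and -0.74. In the slow set normexp gave 0.25 for Myh7, 0.28 for Tnnt1 and 0.90 for Tnni1.

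The mice of a group differed more in these genes than in most. The median within-group SD of the 23 genes was 0.541, against 0.218 over all targets. Such a spread was not particular to muscle. Among the marker lists described below, it was 0.612 for fibroblasts, 0.671 for adipocytes, 0.674 for endothelium and 0.999 for hair follicle keratins. It was 0.153 for keratinocytes, 0.224 for heart, 0.271 for Schwann cells and 0.408 for smooth muscle. Of the 23, 9 had an SD above 0.596, the 90th percentile of all targets: Acta1, Myh1, Myh2, Myh4, Myh8, Myl1, Tcap, Tnnc2 and Tnnt3. Tnni1 was at the other end, at 0.116. Genes read from 1 RNA sample share its content, so the 23 are not 23 independent observations of a mouse.

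Control mouse 3 had the lowest value of its group in 18 of the 23 genes (78.3%), against 36.3% of all targets. Its Myl1 value minus the mean of controls 1 and 2 was -2.72 on the log2 scale, and the same difference was -2.37 for Tnnt3, -2.24 for Tnnc2, -2.04 for Acta1, -1.95 for Myh8 and -1.89 for Tcap. For Tnni1 it was -0.09. Control mouse 2 was the highest control in 14 of the 23 (60.9%), against 26.1% of all targets. This order of the controls was not particular to muscle genes. For the fibroblast markers Col1a1, Col1a2 and Col3a1, control 3 minus the mean of controls 1 and 2 was -1.28, -0.83 and -1.01. Control 2 was the highest control in each of these collagen genes. For Cidec, an adipocyte marker, the same difference was 1.11.

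UVB mouse 3 was the lowest of its group in 15 of the 23 genes (65.2%), against 40.2% of all targets. Its Myl1 value differed from the mean of UVB mice 1 and 2 by -1.86, that of Myh1 by -1.85 and that of Acta1 by -1.69. Its Pvalb value differed by 0.76 and its Myh2 value by 0.89, so not all genes were low in that mouse. Both control 3 and UVB 3 were lowest in 12 genes (52.2%), against 13.2% of all targets. These are different mice with the same number, and the joint count is not read as a link between them.

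**Figure D4:**
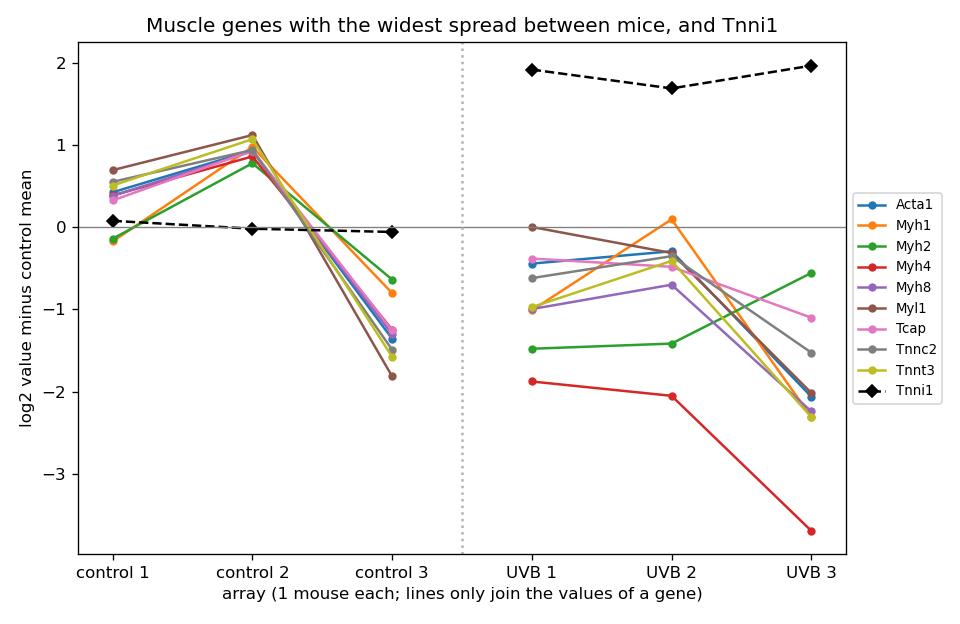
The 9 genes with the widest spread between mice of a group, and Tnni1 (black, dashed). The horizontal axis gives the 6 arrays, the vertical axis the log2 value minus the control mean, and lines only join the values of 1 gene. The 9 genes are low together in control 3 and, apart from Myh2, have their lowest value among the UVB mice in UVB 3, while Tnni1 is flat within each group.

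As a median over the 23 genes, controls 1 to 3 stood at 0.24, 0.33 and -0.64 relative to the control mean and UVB mice 1 to 3 at -0.15, -0.30 and -0.56. Control 3 was lower than all 3 UVB mice on this measure. Over the 10 fast genes the values were 0.40, 0.82 and -0.78 in controls and -0.52, -0.33 and -1.39 after UVB, so control 3 lay within the range of the UVB mice. Over all targets the 6 values lay between -0.06 and 0.03. With control 3 left out, 20 of the 23 differences were negative, the median was -0.48, and Myh4 was the 1 gene called lower.

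Among the probes too dim to test, detection was limited to controls 1 and 2. Of the 19 untested probes, 2 were well above background in control 1 and 8 in control 2, and none on any other array. Of the 9 untested genes, Ckm, Actn3, Mybpc2, Myot and Ttn were detected in control 1 or 2, and Actn2, Casq1, Mylpf and Tnnc1 on none of the arrays. Of all 46 probes, 29, 34 and 26 were above background in controls 1 to 3 and 25, 24 and 23 in UVB mice 1 to 3. Array-wide, 54.9% to 63.3% of probes were above background, with control 2 the highest.

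The arrays shared 1 slide and 1 scan time. UVB mice 2 and 3 lay in the second row of the slide and the other 4 arrays in the first. No control lay in the second row, so with the slide row as a covariate the difference is UVB mouse 1 alone against the controls. It was 1.92 for Tnni1, -1.88 for Myh4 and -0.15 as the median of the 23 genes. This fit cannot tell the slide row from a difference between UVB mice.

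Upstream sequence was set beside these values because the genes with a wide spread moved together while Tnni1 did not. RefSeq promoter entries of GRCm38.p6 matched 25 of the 32 genes. The 250 bases before the start are shown for Tnni1 (chr1:135799171-135799420, plus strand, the first of 2 listed starts), Myh4 (chr11:67237562-67237811, plus strand) and Acta1 (chr8:123894776-123895025, minus strand), with motif matches in capitals.

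Tnni1 upstream: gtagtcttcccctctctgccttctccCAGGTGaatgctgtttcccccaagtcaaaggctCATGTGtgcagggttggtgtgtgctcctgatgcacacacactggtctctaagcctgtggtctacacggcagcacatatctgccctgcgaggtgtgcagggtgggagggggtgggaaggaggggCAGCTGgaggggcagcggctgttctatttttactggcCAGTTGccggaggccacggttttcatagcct
Myh4 upstream: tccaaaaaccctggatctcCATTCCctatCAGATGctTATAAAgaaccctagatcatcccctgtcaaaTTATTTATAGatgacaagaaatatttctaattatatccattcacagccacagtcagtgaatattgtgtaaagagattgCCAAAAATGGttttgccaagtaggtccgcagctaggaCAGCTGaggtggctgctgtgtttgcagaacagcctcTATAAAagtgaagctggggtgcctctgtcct
Acta1 upstream: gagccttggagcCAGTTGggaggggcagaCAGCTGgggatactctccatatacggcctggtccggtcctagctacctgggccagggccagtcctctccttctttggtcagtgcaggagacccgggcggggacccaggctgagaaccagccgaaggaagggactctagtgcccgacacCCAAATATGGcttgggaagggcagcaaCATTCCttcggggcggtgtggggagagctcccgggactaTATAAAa

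The motifs were searched on both strands. A gene counts if any of its listed starts has a match, while the percentages count single windows. A gene with several starts thus has more chances of a match than a window. CANNTG, the E box that myogenic basic helix-loop-helix factors can bind, occurred 4 times upstream of Tnni1, 2 times for Myh4 and 2 times for Acta1. It was present for 21 of the 25 genes and for 66.2% of all 32851 promoter windows of that length. CATTCC, the MCAT element, occurred once in Myh4 and in Acta1 and not in Tnni1, in 9 of the 25 genes and in 12.6% of all windows. TATAAA occurred 3 times for Myh4, 1 of them overlapping the MEF2 match, and 1 time for Acta1. It was found in 6 of the 25 genes and 12.4% of all windows. The MEF2 motif was matched in Myh4, in 5 of the 25 genes and in 2.92% of windows. The CArG box was matched in Myh4 and Acta1, in 3 of the 25 genes and in 1.47% of windows. Of these motifs the Tnni1 window held E boxes alone, which does not set it apart. The same was so for Tnnc2, a gene of wide spread, and for Ckm, Mylpf, Tpm2, Actn2, Mybpc1, Casq1 and Atp2a1. A match is a run of letters and not evidence that a factor binds there.

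Further lists of striated muscle genes were read against the same background, 5.54% of all targets called higher and 7.02% lower. Of 30 further filament and Z-disc genes, 14 were tested, with 0 called higher, 1 lower and a median of 0.04. The 1 called was Xirp1, an actin-binding protein of myotendinous junctions and intercalated discs, at least 1.53-fold lower after UVB as a bound, since its probe was above background on none of the UVB arrays. The adjusted p of 0.0396 was computed on UVB signals not above background, and the probe was tested through the controls alone. The Xirp1 difference turned to 0.12 with normexp. Its call was lost without control 1, 2 or 3 or without UVB mouse 1 or 3, with adjusted p up to 0.111. Of 18 further genes of excitation-contraction coupling, 9 were tested, with 0 higher, 1 lower and a median of -0.21. Bin1, which shapes the T-tubule membrane and is also made in other tissues, had a difference of -0.75 ± 0.16, and its adjusted p of 0.0312 lay at 0.037 to 0.115 with 1 array left out. Among these fits the call held only without control 3. Sln, sarcolipin, was above background in control 2 alone.

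Of 11 neuromuscular junction genes 5 were tested and none was called by limma, with a median of 0.02 and 0 at an unadjusted p under 0.05. Of 14 costamere and membrane genes 11 were tested, with 0 higher, 2 lower and a median of -0.06. The called genes were Popdc3, at -0.86 ± 0.14 with adjusted p = 0.0158, and Itga7, the laminin receptor subunit of muscle and other cells, at -0.58 ± 0.11 with adjusted p = 0.0231. Popdc3 lost the call without control 2 (adjusted p = 0.0693), and Itga7 lost it whichever array was left out, at 0.0529 to 0.102. Dmd, dystrophin, had a difference of -0.18 ± 0.42, and Des, desmin, was above background in 1 control alone.

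Of 20 muscle metabolism genes, many of them active in other tissues, 18 were tested, with 1 higher, 4 lower and a median of -0.32. Ldhb, a lactate dehydrogenase subunit, read 4.29, 4.25 and 4.37 in controls and 3.42, 3.40 and 3.31 after UVB, a difference of -0.93 ± 0.11 with adjusted p = 0.00676. Cox8b, a cytochrome oxidase subunit of muscle, heart and brown fat, read -1.82, -1.10 and -1.59 in controls and -2.76, -2.94 and -3.27 after UVB, a difference of -1.48 ± 0.23 with adjusted p = 0.0142. In neither of these was control 3 the lowest control. Both calls held with any 1 array left out. Mb, myoglobin, which stores oxygen in muscle, read -2.69, -2.69 and -4.86 in controls and -2.43, -2.55 and -3.40 after UVB. It was low in control 3 like the sarcomere genes, and its difference of 0.62 ± 0.63 had an adjusted p of 0.546. Without control 3 it was -0.10.

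Of 18 myogenic regulators and satellite cell genes, 10 were tested, with 2 higher, 0 lower and a median of 0.34. Megf10, a receptor of satellite cells and other cells, was above background on none of the controls and on all 3 UVB arrays. It was at least 5.60-fold higher as a bound on this scale. The Megf10 difference on the log2 scale was 4.43, but 1.32 with normexp. Its adjusted p of 0.00294 was computed on control signals not above background, and its probe was tested through the UVB arrays alone. Tbx1 differed by 1.14 ± 0.22 with adjusted p = 0.0242, which lay at 0.0272 to 0.0811 with 1 array left out and was lost without control 2 or any 1 of the UVB mice. Pax7, the satellite cell regulator, differed by 0.93 ± 0.92 with adjusted p = 0.537. Myog, the myogenin that acts as muscle cells differentiate, and Myh3, the embryonic myosin, were above background on 0 of 6 arrays, and Myod1 on 1 control alone.

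Other cell types of skin and other muscle were checked with marker lists of 10 genes each, or 9 for Schwann cells. Of the heart markers 7 were tested, with 0 higher, 1 lower and a median of -0.17. Of the smooth muscle markers 6 were tested and none was called by limma (3 higher at an unadjusted p under 0.05), with a median of 0.25, and Myh11, the smooth muscle myosin, was above background on 0 of 6 arrays. The 3 were Acta2, Tagln and Cnn1. With normexp they were called higher by limma, at adjusted p of 0.0182, 0.0237 and 0.0234. Summed on the linear scale relative to each array's 75th percentile, the heart markers stood at 2.46 to 2.60 in control mice and at 2.36 to 2.58 in UVB mice. The smooth muscle markers stood at 10.03 to 11.4 and 9.40 to 11.6. Such sums lean on the brightest probes and are set only between groups, not between lists.

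Of the hair follicle keratin markers all 10 were tested and 9 called higher, with a median of 8.44 and a summed level of 16.7 to 19.9 in controls and 295 to 1198 after UVB. Krt27, a keratin of the inner root sheath, had a difference of 8.48 ± 0.54 with adjusted p = 0.00223. Of the fibroblast markers 8 were tested, with 3 higher, 0 lower and a median of 1.05, and their sum was 6.91 to 13.6 in controls and 18.4 to 26.0 after UVB. Col1a1, a collagen chain, differed by 2.35 ± 0.46 with adjusted p = 0.0261. Its call ended without control 1 or any 1 of the UVB mice, at up to 0.0854. The medians of both lists had the same sign as the Tnni1 difference, and their part in its value was not tested.

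Of the adipocyte markers 7 were tested, with 1 higher, 2 lower, a median of -0.99 and a sum of 4.31 to 10.4 in controls and 7.85 to 30.4 after UVB. Of these 7, 5 were negative, and the high sums after UVB rest on Fabp4, a fatty acid carrier, which read -2.56, -0.24 and -1.22 in controls and 3.09, 2.49 and 4.80 after UVB. It differed by 4.80 ± 0.77 with adjusted p = 0.0158, or 0.0549 without UVB mouse 1. Cidec, a lipid droplet protein, was at least 5.12-fold lower as a bound for its brightest probe on this scale. The Cidec difference on the log2 scale was -2.66 there, but -1.51 as the mean of its tested probes and -0.89 with normexp. The adjusted p of 0.0208 for the brightest probe was computed on UVB signals not above background, and that probe was tested through the controls alone. The Cidec call ended without control 2 or UVB mouse 1 or 2, at up to 0.0803. Adipoq was above background in 2 controls alone and Plin1 in 1 control alone. Of 9 Schwann cell markers 8 were tested, with 1 higher, 2 lower and a median of -0.32, and their sum was 11.7 to 12.9 in controls and 6.24 to 7.88 after UVB. The Schwann cell sums rest mostly on Mbp, at -0.78 ± 0.15 with adjusted p = 0.0273, or 0.0930 as the mean of its probes. The Mbp call ended in 5 of the 6 fits with 1 array left out. Fat and nerve lie near the muscle sheet, and the part of sample depth in the muscle values was not tested.

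Of the basal and spinous keratinocyte markers all 10 were tested, with 0 higher, 2 lower, a median of -0.03 and a sum of 3007 to 3515 in controls and 3436 to 4117 after UVB. Krt14, which marks basal epidermis, was well above background on all 6 arrays and differed by -0.30 ± 0.13 with adjusted p = 0.174. It was called lower by limma with quantile normalization (adjusted p = 0.0357) and with the deposited table (0.0325). Of the endothelial markers 6 were tested and none was called by limma (0 at an unadjusted p under 0.05), with a median of 0.27 and a sum of 9.62 to 11.2 in controls and 12.5 to 15.2 after UVB. The endothelial sums rest mostly on Kdr, which read 3.33, 3.29 and 3.11 in controls and 3.43, 3.55 and 3.73 after UVB, with adjusted p = 0.161.

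With the slide row as a covariate, which sets UVB mouse 1 alone against the controls, Megf10 and Krt27 kept their calls. The other called genes named from these lists lost theirs. With 1 UVB mouse in the contrast, neither outcome adjusts the comparison of 3 mice per group for the row.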

How the data were processed

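Cy3-labelled RNA of each mouse was hybridised to an Agilent mouse array with 1 colour. Per the file headers, the scanner software was Agilent Feature Extraction 10.7.1.1, and the processed intensity that the authors deposited was detrended within each array, carries surrogates for dim spots and is unscaled between arrays. The deposited table of log2 values was used as an alternative only; its values look quantile normalized, and its making is not stated in the sources used here.

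Log2 of the processed signal was taken and each array's 75th percentile subtracted. Control and outlier spots were dropped, repeated spots averaged, and probes tested if well above background in 3 or more mice. A gene stands for its brightest tested probe. Of the probes, 26582 were named through a RefSeq accession, 3094 through a symbol or synonym and 26005 by the name in the files. Positions of probes come from the files (mm9) and those of promoters from the RefSeq table (GRCm38.p6).

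The UVB and control groups were compared with lmFit and eBayes of limma 3.58.1 (R 4.3.3), two-sided, with Benjamini-Hochberg adjustment over all 24333 targets and a threshold of 0.05. The labels give 3 mice per group, so p-values measure the spread between mice, and 3 arrays per group limit the precision. A bound sets the mean of one group against the mean, over the arrays of the other, of the higher of the probe's own signal and the lowest signal well above background. It holds for the probe and scale used and can fail under another background correction. The member genes and the gene lists were chosen with earlier results of these data known. The rule named all 32 genes, the 3 tested genes of smallest p in each other list, and 18 fixed markers, not all of which are described; 1 marker is not reported here. The alternatives were other scaling, background correction, dim-probe filters, probe averaging and moderation, the deposited table, flagged spots kept, the replicate number as a block, each array left out in turn and, chosen after the data were seen, the slide row. The steps were tested on simulated data. Replicate numbers name different mice. Deviations of same-numbered arrays correlated at -0.11, -0.26 and -0.08. Such deviations, taken from a mean of 3 arrays, depend on each other, so they cannot show whether the numbers carry a pairing.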

Additional observations from a re-analysis of the deposited data

How the results depend on the processing

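Tnni1 was the 1 gene of the set called higher under all 18 settings. The count called lower, 0 in the analysis above, was 1 (Myh4) with the array median as the scale, with trend and robust moderation and with the replicate block, and 0 to 1 with an array left out. The replicate block left 306 targets called lower and 476 higher, against 1708 and 1349 without it, and the labels give no pairing by number. With the block the standard error was 0.17 against 0.72 for Acta1, 0.21 against 0.79 for Tnnt3 and 0.47 against 0.42 for Myh2. The slide row as a covariate left 122 lower and 106 higher. With normexp 2547 targets were higher and 2488 lower, with no filter on dim probes 1062 were lower, and with trend and robust moderation 2549 lower. With 1 array left out, which left 1 group with 2 arrays, 393 to 1064 were lower and 472 to 955 higher. The cause of these changes was not tested, apart from the fewer arrays in the last case. The median over the tested muscle genes stayed negative, at -0.51 with the array median, -0.50 with no filter, -0.15 with the slide row, -0.0090 with normexp and -0.54 to -0.29 with an array left out. The median of all targets moved from -0.04 to -0.14 with the array median, 0.08 with normexp and 0.10 with no filter. Of the 23 genes 16 were negative above, 19 with the array median, 18 with quantile normalization and 12 with normexp. Signs turned in these cases, with no adjusted p under 0.05 in any. Quantile normalization gave -0.083 for Atp2a1 and -0.038 for Myh7. The array median gave -0.081 for Atp2a1, -0.025 for Myh7 and -0.041 for Tnni2. The deposited table gave -0.090 for Atp2a1 and -0.047 for Myh7. Normexp gave 0.026 for Mybpc1, 0.045 for Myh1, 0.064 for Myoz1, 0.14 for Neb, 0.16 for Ryr1, -0.0090 for Tnni2, 0.12 for Xirp1, 0.19 for Chrng and 0.11 for Dmd. The mean of a gene's probes gave 0.38 for Cacna1s, -0.26 for Ldb3 and 0.072 for Dmd. The slide row gave 0.049 for Mybpc1, 0.0026 for Myl1, 0.025 for Neb and -0.018 for Pvalb. With single arrays left out, Atp2a1 lay at -0.15 to 0.17, Colq lay at -0.12 to 0.42, Dmd lay at -0.50 to 0.23, Ldb3 lay at -0.067 to 0.31, Mb lay at -0.10 to 0.98, Mybpc1 lay at -0.46 to 0.032, Myh7 lay at -0.29 to 0.32, Neb lay at -0.36 to 0.033, Pvalb lay at -0.011 to 0.68, Tnni2 lay at -0.29 to 0.34 and Tnnt1 lay at -0.094 to 0.28. Genes near background are limited by signal: the Myh1, Myh2 and Myh4 probes were above background in 1 UVB mouse each.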
